A study of Mus musculus with 20 samples.

Results

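The 6 genes described here encode subunits of the phagocyte NADPH oxidase: the membrane subunits Cybb and Cyba, the cytosolic subunits Ncf1 and Ncf4, and the small GTPases Rac1 and Rac2. They were found by gene symbol in the array's annotation, and each had 1 probe set in the deposited table. The sources used here do not state how the 20630 probe sets of that table were selected. Earlier results of these data were known when the genes were chosen. They are 6 of 17771 genes with an unambiguous probe set, and all 6 were among the 11767 genes bright enough to be tested, so no member was lost to the filter on dim probes. Transcripts were measured on one-colour Affymetrix arrays, as log2 levels, in eosinophils grown from mouse bone marrow and taken on day 12 of culture. They were grown from 5 wild-type mice (Dusp5+/+) and 5 knockout mice (Dusp5-/-). Dusp5 encodes a nuclear phosphatase that inactivates the MAP kinases ERK1 and ERK2. Cells of each mouse were kept in medium alone or given the cytokine IL-33 at 25 ng/ml for 4 hours, which gave 20 arrays in 4 groups of 5. The sources used here do not state the deleted part of Dusp5 or the strain and age of the mice, and all 4 groups were cultured bone marrow cells, not eosinophils taken from tissue.

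The NADPH oxidase passes electrons from NADPH across a membrane to oxygen and so makes superoxide. At rest the catalytic heterodimer of Cybb and Cyba sits in the membrane apart from the cytosolic subunits. On stimulation the cytosolic subunits are phosphorylated and move to the membrane with Rac in its GTP-bound form, so activity is set largely by assembly and not by transcript level alone. Eosinophils are known for a strong oxidase that releases superoxide to the outside of the cell, where eosinophil peroxidase uses the hydrogen peroxide formed from it. Inherited loss of Cybb, Cyba or Ncf1 causes chronic granulomatous disease, in which phagocytes do not kill many microbes.

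Promoter sequences of 3 of the 6 members were in the RefSeq table used (build GRCm38.p6) and are shown because their genes moved differently: Ncf1 and Cyba rose with IL-33, while Cybb had an estimate below 0. Each runs 5′ to 3′ on the gene's strand, in a window of 300 bases that ends shortly after the start site, and all 3 genes lie on the minus strand. Capitals mark matches, on either strand, to 4 short patterns: GAGGAA, which PU.1 and other ETS factors bind, GGGA and CC with 4 bases of any kind between them for NF-kB, TGANTCA for AP-1 and AGATAA for GATA factors. The windows lay at chr5:134229576-134229875 for Ncf1, chr8:122432891-122433190 for Cyba and chrX:9469275-9469574 for Cybb.
Ncf1: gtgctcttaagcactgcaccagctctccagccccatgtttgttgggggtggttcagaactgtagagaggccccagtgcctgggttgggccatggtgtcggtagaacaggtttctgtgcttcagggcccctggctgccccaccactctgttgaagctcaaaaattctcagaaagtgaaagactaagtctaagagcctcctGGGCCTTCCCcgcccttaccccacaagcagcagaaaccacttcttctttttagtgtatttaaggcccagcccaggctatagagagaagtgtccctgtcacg
Cyba: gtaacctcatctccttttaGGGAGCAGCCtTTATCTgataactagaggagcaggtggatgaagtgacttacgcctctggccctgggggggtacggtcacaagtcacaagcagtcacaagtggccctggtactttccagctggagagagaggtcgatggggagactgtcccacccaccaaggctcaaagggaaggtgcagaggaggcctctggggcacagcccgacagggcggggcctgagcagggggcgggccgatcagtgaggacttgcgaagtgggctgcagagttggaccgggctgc
Cybb: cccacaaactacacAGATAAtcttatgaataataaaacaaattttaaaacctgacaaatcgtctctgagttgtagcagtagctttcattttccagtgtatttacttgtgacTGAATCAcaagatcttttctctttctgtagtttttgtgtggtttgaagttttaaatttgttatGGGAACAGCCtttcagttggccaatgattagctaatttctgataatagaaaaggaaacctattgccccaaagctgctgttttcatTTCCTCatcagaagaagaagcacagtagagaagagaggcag
The Ncf1 window held a single match, to the NF-kB pattern at base 200 on the opposite strand. The Cyba window held the NF-kB pattern at base 20 on the gene's strand and the GATA pattern at base 31 on the opposite strand. The Cybb window held all 4 patterns, with GATA at base 15, AP-1 at base 112 and NF-kB at base 175 on the gene's strand and GAGGAA at base 260 on the opposite strand. None of these matches overlapped another. Of 32851 promoter windows of the same length in the table, 20.7% held the NF-kB pattern, 28.3% GAGGAA, 11.2% the GATA pattern and 7.81% the AP-1 pattern. The NF-kB pattern was thus present in the windows of members that rose and of one that did not pass the test for a change. A match is a run of letters and not a measured binding site.

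The level of Dusp5 checked the genotype labels. Its mean log2 level was 8.15 ± 0.26 (SD, n = 5) in untreated and 9.77 ± 0.35 in IL-33-treated wild-type cells, against 4.40 ± 0.31 and 4.95 ± 0.18 in knockout cells, with no overlap between genotypes. Array medians lay between 4.25 and 4.32, and arrays of 1 group correlated at 0.976 to 0.996. Of 10 defining eosinophil genes, 7 were measured, and all were bright, with a mean log2 level over the 7 of 10.87 to 11.46 on every array. Markers of other bone marrow cells were also present: the mean over 12 of 13 neutrophil markers was 8.40 to 9.24 and over 13 of 15 markers of monocytes, macrophages and dendritic cells 8.91 to 9.68. Over 8 of 9 mast cell and basophil markers it was 8.49 to 8.88, over 7 progenitor markers 4.91 to 6.42 and over 3 of 7 lymphocyte markers 4.42 to 5.71. In RNA from a whole culture, a change in the share of a cell type and a change in RNA per cell cannot be told apart.

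With IL-33, the transcripts of the cytosolic subunits Ncf1 and Ncf4 rose in both genotypes, in wild-type cells by 2.06-fold and 1.48-fold, and those of the membrane subunit Cyba rose slightly. Rac2 rose slightly in wild-type cells, by 0.28 (limma, adjusted p = 0.0447). A similar difference in knockout cells, 0.24, did not pass (adjusted p = 0.0741). Cybb, the catalytic subunit, did not rise in either genotype: its estimate was below 0 in both, and lower by enough to pass a test that compared the arrays of each mouse. Rac1 stayed within 0.20 of its untreated level on the log2 scale in wild-type cells, as the 95% interval shows. Of the 6 members, 4 rose and 0 fell in wild-type cells by limma at an adjusted p under 0.05, where 16.1% of all genes tested rose and 26.7% fell. The count was 2, Ncf1 and Ncf4, when most single wild-type arrays or mice were left out, after median centring, with no filter on dim probes and when only the 2 groups were fitted. In knockout cells 3 rose and 0 fell, where 18.9% of all genes rose and 33.2% fell. These counts do not use the pairing of the 2 arrays of a mouse. With the mouse as a fixed block, Cyba and Rac2 kept their calls in wild-type cells. Rac2 then also rose in knockout cells, where 23.5% of all genes did. Cybb fell in both genotypes, where 37% and 42% of all genes fell. The mouse as a random block gave the same calls, except that Cybb fell in knockout cells only. Over the members the median difference came to 0.21 in wild-type cells and 0.20 in knockout cells, against -0.05 and -0.08 over all genes tested.

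**Figure D1:**
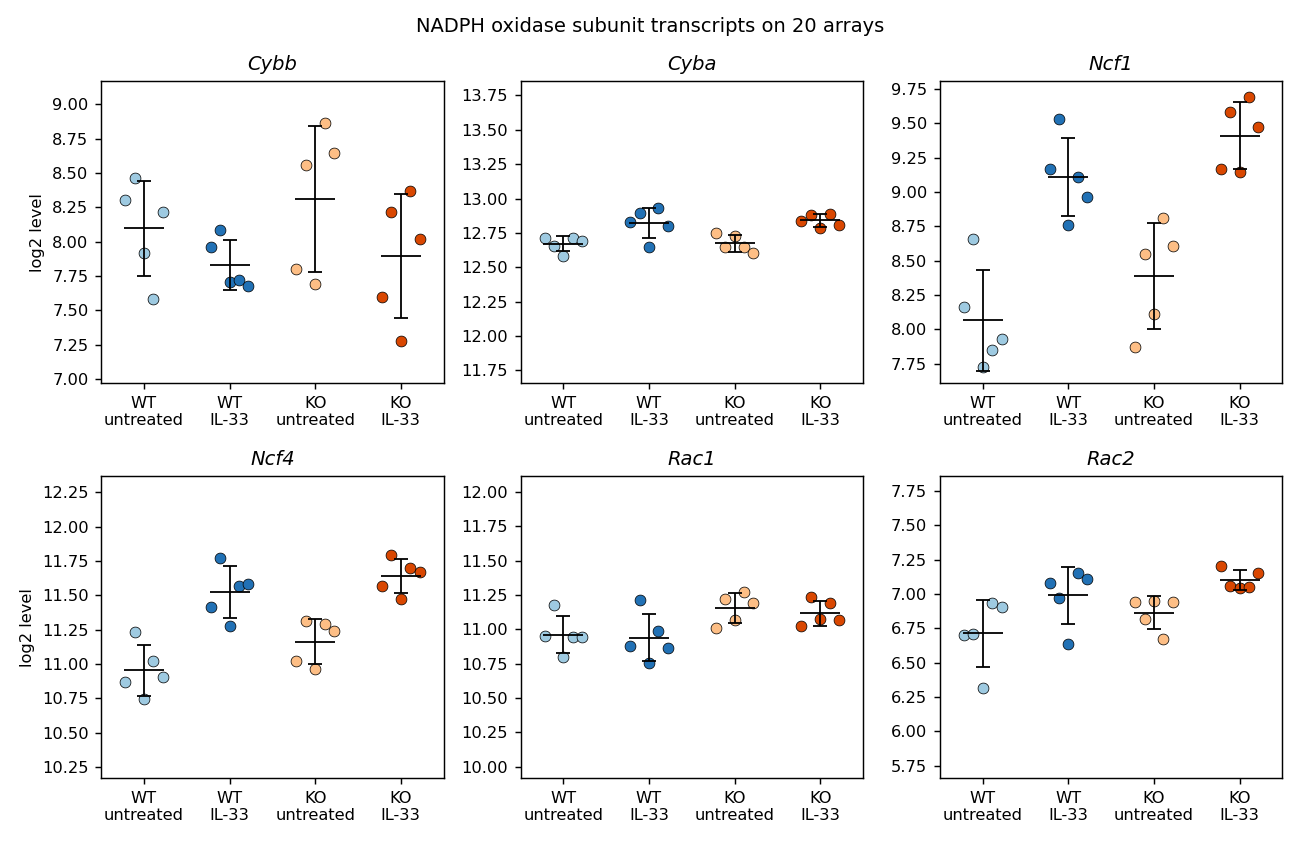
Log2 level of each oxidase subunit transcript (vertical axis, placed separately for each gene) on the 5 arrays of each group; points are arrays, bars the mean and SD. Ncf1 and Ncf4 do not overlap between untreated and IL-33 cells of a genotype, while Cybb and Rac1 do.

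Ncf1 encodes p47phox, the organiser subunit that is phosphorylated on stimulation and carries the cytosolic complex to the membrane. In wild-type mice 1 to 5 its log2 level was 8.16, 8.66, 7.73, 7.85 and 7.93 in untreated cells and 9.17, 9.54, 8.76, 9.11 and 8.97 after IL-33. The lowest IL-33 array lay above the highest untreated array, and mouse 2 was highest under both conditions. In knockout mice 1 to 5 the level was 7.87, 8.55, 8.11, 8.81 and 8.61 untreated and 9.17, 9.58, 9.14, 9.69 and 9.47 after IL-33, again with no overlap. Such a separation upward was seen in 10.7% of all genes for wild-type cells and in 13.5% for knockout cells. The rise was 1.04 ± 0.19 (SE; 2.06-fold, limma, adjusted p = 0.000174) in wild-type and 1.02 ± 0.19 (2.03-fold, adjusted p = 0.00015) in knockout cells. Only 2.52% and 3.1% of genes tested had a larger rise. Within mice the rise ran from 0.86 to 1.29, and it was present in 10 of 10 mice. In order of mean level the groups were untreated wild type (8.07 ± 0.37, SD, n = 5), untreated knockout (8.39 ± 0.38), IL-33 wild type (9.11 ± 0.29) and IL-33 knockout (9.41 ± 0.25), and each of these neighbours overlapped on single arrays.

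Ncf4 encodes p40phox, which binds phosphatidylinositol 3-phosphate and sustains oxidase activity on phagosomes. In wild-type mice 1 to 5 its level was 10.87, 11.23, 10.74, 11.02 and 10.90 untreated and 11.41, 11.77, 11.27, 11.57 and 11.58 after IL-33. As for Ncf1, mouse 2 was the highest and mouse 3 the lowest of the wild-type mice under both conditions. In knockout mice 1 to 5 it was 11.02, 11.31, 10.96, 11.29 and 11.24 untreated and 11.57, 11.79, 11.47, 11.70 and 11.67 after IL-33. The treated and untreated arrays did not overlap in either genotype. The rise was 0.57 ± 0.10 (SE; 1.48-fold, limma, adjusted p = 0.000169) in wild-type and 0.48 ± 0.10 (1.39-fold, adjusted p = 0.000692) in knockout cells, and 5.69% and 8.57% of genes had a larger one. It was present in 10 of 10 mice, from 0.41 to 0.68. Group means in order were 10.95 ± 0.19 (SD, n = 5) in untreated wild-type, 11.16 ± 0.16 in untreated knockout, 11.52 ± 0.19 in IL-33 wild-type and 11.64 ± 0.12 in IL-33 knockout cells. Neighbours in that order overlapped.

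Cybb encodes gp91phox (NOX2), the flavocytochrome that moves the electrons. In wild-type mice 1 to 5 its level was 8.31, 8.46, 7.92, 7.58 and 8.22 untreated and 7.96, 8.08, 7.71, 7.72 and 7.68 after IL-33. In knockout mice 1 to 5 it was 7.80, 8.56, 7.69, 8.86 and 8.65 untreated and 7.60, 8.21, 7.28, 8.37 and 8.02 after IL-33. Mice differed more than treatments did: knockout mice 1 and 3 were lower under both conditions than the other knockout mice, and all group ranges overlapped. The difference with IL-33 was -0.26 ± 0.23 (SE; limma, 95% interval -0.75 to 0.22, adjusted p = 0.376) in wild-type and -0.42 ± 0.23 (-0.90 to 0.07, adjusted p = 0.138) in knockout cells, neither called. Within mice it was -0.34, -0.38, -0.21, 0.14 and -0.53 in wild-type mice 1 to 5 and -0.20, -0.35, -0.41, -0.49 and -0.63 in knockout mice 1 to 5, so 9 of 10 mice had the lower level after IL-33. Wild-type mouse 4, the exception, started from the lowest untreated level of its genotype. When the mouse entered limma as a fixed block, Cybb was called lower in wild-type (adjusted p = 0.0194, where 37% of all genes fell) and knockout cells (adjusted p = 0.000985, where 42% fell). As a random block it gave the call in knockout (adjusted p = 0.0182, where 40.7% fell) and not in wild-type cells (adjusted p = 0.133, where 35.2% fell). Without untreated knockout array 3, the difference in knockout cells was -0.57 (adjusted p = 0.0438, where 31.8% fell). Group means in order were IL-33 wild type (7.83 ± 0.18, SD, n = 5), IL-33 knockout (7.90 ± 0.45), untreated wild type (8.10 ± 0.35) and untreated knockout (8.31 ± 0.53), with overlap throughout.

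Cyba encodes p22phox, the membrane partner that stabilises Cybb and docks Ncf1. Its level varied little. In wild-type mice 1 to 5 it was 12.71, 12.66, 12.58, 12.72 and 12.69 untreated and 12.83, 12.89, 12.64, 12.93 and 12.80 after IL-33. In knockout mice 1 to 5 it was 12.75, 12.64, 12.73, 12.65 and 12.61 untreated and 12.84, 12.88, 12.79, 12.89 and 12.81 after IL-33. Treated and untreated arrays overlapped in wild-type cells through mouse 3, and did not overlap in knockout cells. The rise was 0.15 ± 0.06 (SE; 1.11-fold, limma, adjusted p = 0.0486) in wild-type and 0.17 ± 0.06 (1.12-fold, adjusted p = 0.0228) in knockout cells, seen in 10 of 10 mice. The call in wild-type cells was close to the threshold and was kept under 6 of 23 other settings. It had a limma adjusted p of 0.0965 after further quantile normalization and 0.154 without mouse 2. With the mouse as a fixed or a random block the call was kept (limma, adjusted p = 0.0204 and 0.00829). The call in knockout cells was lost without mouse 2, 4 or 5 (adjusted p at most 0.0887). Both blocks kept it (limma, adjusted p = 0.00956 and 0.00299). Group means were 12.67 ± 0.06 (SD, n = 5) in untreated cells of both genotypes, 12.82 ± 0.11 in IL-33 wild-type and 12.84 ± 0.05 in IL-33 knockout cells.

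Rac1 and Rac2 encode the GTPases that, bound to GTP, switch on the assembled oxidase; Rac2 is the form largely restricted to blood cells. Rac2 in wild-type mice 1 to 5 was at 6.70, 6.71, 6.31, 6.93 and 6.90 untreated and 7.08, 6.97, 6.64, 7.15 and 7.11 after IL-33. In knockout mice 1 to 5 it was at 6.94, 6.82, 6.95, 6.67 and 6.94 untreated and 7.20, 7.06, 7.04, 7.05 and 7.16 after IL-33. Wild-type mouse 3 had the lowest level under both conditions and made the wild-type groups overlap, while the knockout groups did not overlap. The rise in wild-type cells was 0.28 ± 0.11 (SE; 1.21-fold, limma, adjusted p = 0.0447). It was kept under 9 of 23 other settings, and not when only the 2 groups were fitted (adjusted p = 0.115) or without untreated array 3 (0.18, adjusted p = 0.149). Among the settings that kept it were the mouse as a fixed block and as a random block (limma, adjusted p = 0.000469 and 0.0023). In knockout cells the difference was 0.24 ± 0.11 (1.18-fold, adjusted p = 0.0741), which did not pass. It passed when the mouse was a fixed block (adjusted p = 0.00126, where 23.5% of all genes rose) or a random block (adjusted p = 0.00651, where 24.8% rose). It also passed after further quantile normalization, at 0.38 (adjusted p = 0.00621, where 22.7% rose), and when only the 2 groups were fitted (adjusted p = 0.0175, where 18.9% rose). All 10 mice had more Rac2 after IL-33, by 0.09 to 0.38.

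Rac1 in wild-type mice 1 to 5 was at 10.95, 11.17, 10.80, 10.94 and 10.94 untreated and 10.88, 11.21, 10.76, 10.99 and 10.87 after IL-33. In knockout mice 1 to 5 it was at 11.01, 11.22, 11.07, 11.28 and 11.19 untreated and 11.02, 11.23, 11.08, 11.19 and 11.07 after IL-33. Each mouse kept nearly its own level through the treatment, with changes from -0.13 to 0.05, of which 5 were up and 5 down. The difference with IL-33 was -0.02 ± 0.09 (SE; limma, 95% interval -0.20 to 0.16, adjusted p = 0.865) in wild-type and -0.04 ± 0.09 (-0.21 to 0.14, adjusted p = 0.743) in knockout cells. Mean levels were 10.94 ± 0.17 (SD, n = 5) in IL-33 wild-type, 10.96 ± 0.14 in untreated wild-type, 11.12 ± 0.09 in IL-33 knockout and 11.15 ± 0.11 in untreated knockout cells. For Rac2 they were 6.71 ± 0.25, 6.86 ± 0.12, 6.99 ± 0.21 and 7.10 ± 0.07 in untreated wild-type, untreated knockout, IL-33 wild-type and IL-33 knockout cells. Neighbours in both orders overlapped on single arrays.

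**Figure D2:**
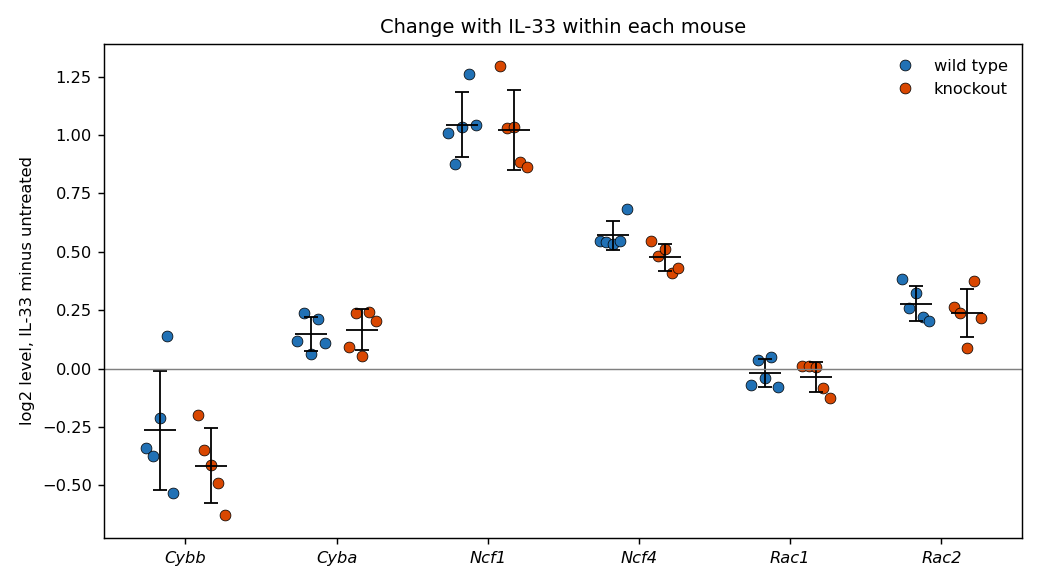
Log2 level after IL-33 minus the untreated level of the same mouse (vertical axis) for each subunit, with 1 point per mouse, 5 wild-type and 5 knockout, and bars for the mean and SD. Ncf1, Ncf4, Cyba and Rac2 lie above 0 in 10 of 10 mice, Cybb below 0 in 9 of 10, and Rac1 on both sides of 0.

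Csf1r, Adgre1 and Cd14, of the list of monocyte, macrophage and dendritic cell markers, also rose with IL-33. The rises were 0.62 ± 0.13, 0.70 ± 0.18 and 2.13 ± 0.11 (SE) in wild-type cells. In knockout cells they were 0.54 ± 0.13, 0.66 ± 0.18 and 2.41 ± 0.11 (limma, adjusted p at most 0.00491 in both genotypes). Of the 13 markers of monocytes, macrophages and dendritic cells tested, 3 rose and 0 fell in wild-type cells, and 3 rose and 3 fell in knockout cells. The fallers were Cd68, C1qa and C1qc, at -0.49 ± 0.12, -0.40 ± 0.16 and -0.55 ± 0.15 (SE; limma, adjusted p at most 0.0443). The call of C1qa was lost under 13 alternatives. Wild-type estimates of these genes were -0.23, -0.23 and -0.27, and did not pass (limma, adjusted p at least 0.115). Across the list, the median difference was 0.05 for wild-type and -0.11 for knockout cells, so the list did not rise as a whole. The mean over the list ran from 8.91 to 9.44 in untreated and 9.19 to 9.56 in IL-33 wild-type cells, and from 9.08 to 9.54 and 9.13 to 9.68 in knockout cells. Of 12 neutrophil markers 1 rose and 0 fell in each genotype, with list means of 8.55 to 9.15 and 8.45 to 9.22 in wild-type cells and 8.46 to 9.24 and 8.40 to 9.05 in knockout cells. Of the 7 eosinophil genes 0 rose and 3 fell in each genotype, with list means of 11.31 to 11.43 untreated and 10.94 to 11.12 after IL-33 in wild-type cells and of 11.27 to 11.46 and 10.87 to 11.00 in knockout cells. The 3 were the lectin gene Siglecf, the IL-5 receptor gene Il5ra and the lipoxygenase gene Alox15, at -0.71 ± 0.15, -0.84 ± 0.16 and -0.53 ± 0.09 (SE) in wild-type and -0.61 ± 0.15, -1.08 ± 0.16 and -0.62 ± 0.09 in knockout cells (limma, adjusted p at most 0.00173). Of 7 progenitor markers 0 rose, 3 fell in wild-type and 5 fell in knockout cells, with list means of 6.05 to 6.40 and 5.28 to 5.87 in wild-type cells and of 5.75 to 6.42 and 4.91 to 5.50 in knockout cells. Mast cell and basophil markers gave 1 rise and 2 falls among 8 in wild-type and 1 rise and 3 falls in knockout cells, and lymphocyte markers 1 and 0 rises with 0 falls among 3. The lowest level of any tested monocyte or neutrophil marker on any array was 4.78, above the 40th percentile of the arrays, which was at most 3.68. The part of these shifts and of other cell types in the rise of Ncf1, Ncf4, Cyba and Rac2 was not tested.

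Loss of Dusp5 gave no called difference in any subunit. Of the 6 members 0 passed the threshold in untreated cells, where 0.0255% of all genes did, and 0 after IL-33, where 2.21% did (limma). At an unadjusted p under 0.05, 1 member passed in untreated cells and 0 after IL-33, against 1517 and 2837 of all genes. The estimates were above 0 for all 6 members in both conditions, with medians of 0.20 untreated and 0.11 after IL-33, against -0.005 and -0.03 over all genes. That of Cyba, close to 0, turned below 0 under 10 of 28 alternatives untreated and 3 of 28 after IL-33. These included further quantile normalization in both conditions and median centring in untreated cells. That of Cybb after IL-33 turned below 0 under 4 of 28 alternatives. The 2 conditions share their mice, so they do not repeat the comparison independently. Several members also varied together between mice (Ncf1 with Rac1 at r = 0.923), so their shared sign does not count as 6 separate results.

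Among the cytosolic subunits, Ncf1 was higher in knockout cells by 0.33 ± 0.19 (SE; limma, 95% interval -0.07 to 0.72, adjusted p = 0.436) untreated and by 0.30 ± 0.19 (-0.09 to 0.70, adjusted p = 0.338) after IL-33. Ncf4 differed by 0.21 ± 0.10 (-0.01 to 0.43, adjusted p = 0.383) and 0.12 ± 0.10 (-0.10 to 0.33, adjusted p = 0.52). These intervals leave room for knockout levels well above those of wild-type cells, and none of the differences exceeded the spread between mice by the test used. Cybb differed by 0.22 ± 0.23 (-0.27 to 0.70, adjusted p = 0.676) and 0.06 ± 0.23 (-0.42 to 0.55, adjusted p = 0.897). Cyba had the narrowest interval, with 0.003 ± 0.059 (-0.12 to 0.13, adjusted p = 0.986) untreated and 0.02 ± 0.06 (-0.10 to 0.14, adjusted p = 0.864) after IL-33. Its genotype difference was thus bounded within about 0.14 either way on the log2 scale.

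Rac1 was the member nearest to a genotype difference, at 0.19 ± 0.09 (SE; limma, 0.01 to 0.37, unadjusted p = 0.0354, adjusted p = 0.383) untreated and 0.18 ± 0.09 (adjusted p = 0.207) after IL-33. Without IL-33 array 2 of the wild type, the array with the highest Rac1 in its group, the second difference was 0.25 (adjusted p = 0.0464, where 4.32% of all genes were higher in knockout cells), and without both arrays of wild-type mouse 2 the adjusted p was 0.0277 (5.47% higher). Leaving out that mouse moved the count of all genes called from 260 to 2094 after IL-33 and from 3 to 651 in untreated cells. Rac2 differed by 0.15 ± 0.11 (-0.08 to 0.38, adjusted p = 0.513) and 0.11 ± 0.11 (-0.12 to 0.34, adjusted p = 0.565).

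**Figure D3:**
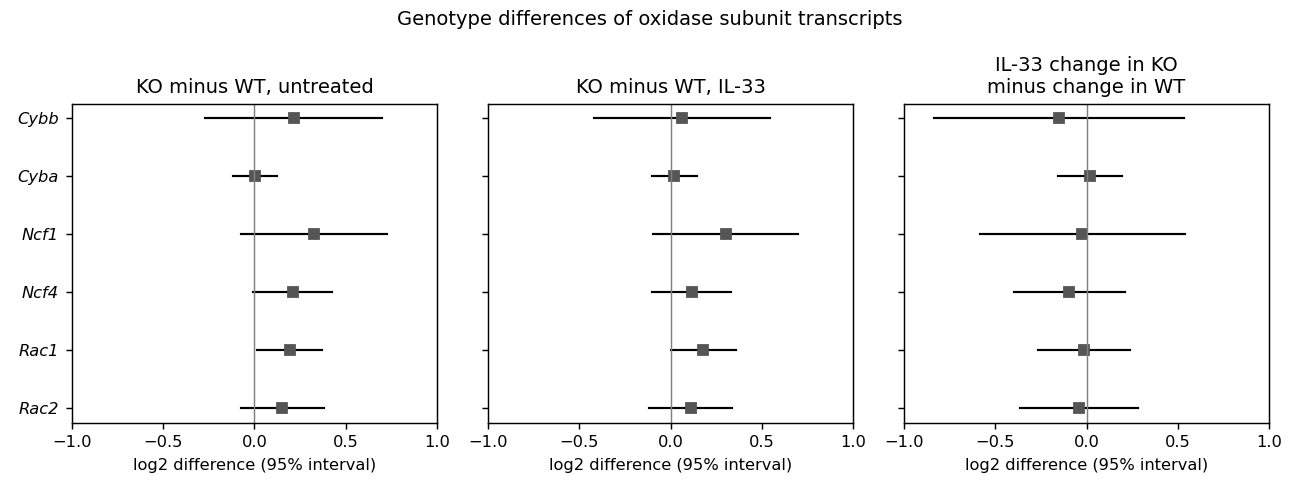
Log2 difference of each subunit transcript (horizontal axis) between knockout and wild-type cells, untreated and after IL-33, and the difference of the 2 IL-33 changes; squares are limma estimates and lines 95% intervals. All intervals but that of Rac1 in untreated cells include 0.

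The IL-33 changes did not differ detectably between genotypes. The change in knockout minus that in wild-type cells was -0.02 ± 0.27 (SE; limma, 95% interval -0.58 to 0.54) for Ncf1, -0.09 ± 0.15 (-0.40 to 0.21) for Ncf4 and -0.15 ± 0.33 (-0.83 to 0.53) for Cybb. It was 0.02 ± 0.08 (-0.16 to 0.19) for Cyba, -0.01 ± 0.12 (-0.27 to 0.24) for Rac1 and -0.04 ± 0.15 (-0.36 to 0.28) for Rac2, each with an adjusted p of 0.999. At an unadjusted p under 0.05, 0 of the 6 members and 568 of all genes passed, and 0 genes passed after adjustment; with the mouse as a random block limma called 26 genes, 0 of them members. The estimates had smaller errors when the mouse was a fixed block: the SE for Ncf1 was 0.0975 and that for Ncf4 0.0631, with adjusted p of 0.94 and 0.541, and the other 4 members did not pass either. A p that misses the threshold does not show that the changes were equal.

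The other genes of the pathway moved in both directions with IL-33. In each pair of values for them, the first is for wild-type and the second for knockout cells. Of 14 other subunits, assembly factors and homologues of the oxidase, 9 were on the array table and 5 bright enough to be tested. Of these 5, 0 rose and 2 fell in each genotype, where 26.7% and 33.2% of all genes fell. Hvcn1, the proton channel that carries away the charge left by electron transfer, fell by 0.72 ± 0.08 in wild-type and fell by 0.86 ± 0.08 (SE) in knockout cells (limma, adjusted p = 1.98e-07 and 1.08e-08). Its mean level went from 11.28 to 10.56 in wild-type and from 11.18 to 10.33 in knockout cells. Rap1a, a GTPase that copurifies with the membrane subunits, fell by 0.22 ± 0.07 and fell by 0.31 ± 0.07 (adjusted p = 0.0209 and 0.00118), with the wild-type call lost without any one of mice 2, 3, 4 and 5 (adjusted p from 0.0513 to 0.0705) and after further quantile normalization (-0.16, adjusted p = 0.0603). Rac3, Noxo1 and Duoxa1 did not pass the test. Cybc1, the chaperone of the membrane subunits, was too dim to test.

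Of 24 regulators of Rac tested, 2 rose, 10 fell and 12 passed in neither direction in each genotype, where 26.7% and 33.2% of all genes fell, with median differences of -0.22 and -0.26. Tiam2, an exchange factor, fell by 1.92 ± 0.13 in wild-type and fell by 1.84 ± 0.13 (SE) in knockout cells. Chn2, a GTPase-activating protein that switches Rac off, fell by 1.21 ± 0.11 and fell by 1.17 ± 0.11. Arhgap25, of the same activity, fell by 1.13 ± 0.14 and fell by 1.14 ± 0.14, and the exchange factor Arhgef6 fell by 0.65 ± 0.08 and fell by 0.71 ± 0.08 (limma, all adjusted p at most 1.74e-06). The genes that fell thus included both activators and inactivators of Rac. The 2 that rose were the exchange factors Arhgef7, by 0.27 ± 0.07 and 0.21 ± 0.07, and Sos1, by 0.30 ± 0.09 and 0.26 ± 0.09. The knockout calls of both, and the wild-type call of Sos1, were lost without some single mice.

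Kinases and lipid enzymes that act on the cytosolic subunits moved both ways, with 4 rises and 3 falls among 13 tested in each genotype and medians of 0.00 and -0.02. Of all genes, 16.1% and 18.9% rose and 26.7% and 33.2% fell. Pla2g4a, whose product releases the arachidonic acid that aids assembly, rose by 1.05 ± 0.12 in wild-type and 1.44 ± 0.12 (SE) in knockout cells. Pik3cd, a catalytic subunit of PI 3-kinase, rose by 0.93 ± 0.07 and 0.96 ± 0.07. The protein kinase C genes went apart: Prkcd rose by 0.68 ± 0.14 and 0.82 ± 0.14, while Prkca fell by 1.12 ± 0.08 and fell by 1.23 ± 0.08 (limma, adjusted p at most 0.000464 for each of these 4 genes).

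Of 11 enzymes that use or remove superoxide and hydrogen peroxide, 2 rose and 2 fell in wild-type and 2 rose and 3 fell in knockout cells. The shares of all genes were 16.1% and 26.7% in wild-type and 18.9% and 33.2% in knockout cells. Sod2, the mitochondrial superoxide dismutase, rose by 2.02 ± 0.06 and 2.18 ± 0.06 (SE; 4.05-fold and 4.53-fold, limma, adjusted p = 2.78e-15 and 6.19e-16). Cat, which breaks down hydrogen peroxide, rose by 0.51 ± 0.11 and 0.52 ± 0.11. Prdx2 fell by 0.61 ± 0.08 and fell by 0.76 ± 0.08, and Gpx3 fell by 0.31 ± 0.11 and fell by 0.38 ± 0.11 (limma, adjusted p at most 0.0233 for these 3 genes). Both are peroxidases, and the wild-type call of Gpx3 was lost after further quantile normalization (-0.22, adjusted p = 0.0643), without mouse 2 or 4 (adjusted p = 0.0582 and 0.0872) and without untreated array 1 or 4 or IL-33 array 2 (adjusted p from 0.0504 to 0.079).

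Among 11 transcription factors known to act on phagocyte oxidase genes, 4 rose and 4 fell in wild-type and 4 rose and 3 fell in knockout cells. The shares of all genes that rose and fell were 16.1% and 26.7% in wild-type and 18.9% and 33.2% in knockout cells. Cebpb rose by 1.03 ± 0.08 and 1.09 ± 0.08 (SE), and Junb, a subunit of AP-1, by 0.78 ± 0.12 and 1.05 ± 0.12. Hoxa9 fell by 0.91 ± 0.15 and fell by 1.26 ± 0.15, and Irf1 fell by 0.66 ± 0.10 and fell by 0.84 ± 0.10 (limma, adjusted p at most 4.4e-05 for these 4 genes). Between genotypes, 0 genes of the lists above were called in untreated cells. After IL-33, 3 were: Pla2g4a was higher in knockout cells by 0.54 ± 0.12 (adjusted p = 0.0316) and Junb by 0.51 ± 0.12 (adjusted p = 0.0332), and Hoxa9 was lower by 0.58 on the log2 scale, with an SE of 0.15 (adjusted p = 0.0447). Each of these 3 calls was lost when only the IL-33 groups were fitted (adjusted p = 0.0852, 0.0554 and 0.096), and under 17, 17 and 20 alternatives in all.

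**Figure D4:**
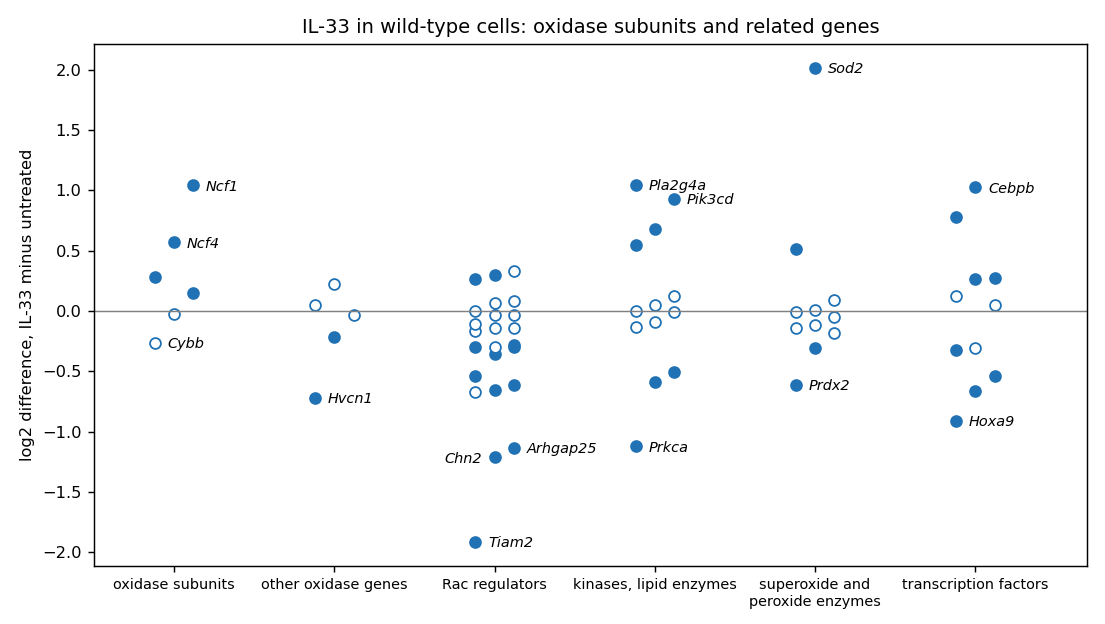
Log2 difference between IL-33 and untreated wild-type cells (vertical axis) for the 6 subunits and 5 lists of related genes (horizontal axis), 1 point per gene, filled where the limma test passed. Ncf1 at 1.04 and Sod2 at 2.02 are among the rises, and Tiam2 is the lowest point.

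The level of several members varied between mice in the same way, apart from the treatment. For each of the 10 mice, the deviation of its arrays from the group means was averaged over its untreated and IL-33 arrays, and the 15 pairs of members were compared by exact permutation of mice within genotype (14400 assignments, two-sided). Ncf1 and Rac1 correlated at r = 0.923 (exact p = 0.00111, adjusted over the 15 pairs 0.0109; rho = 0.952, exact p = 0.000556, adjusted 0.00729). Ncf4 and Rac1 correlated at r = 0.933 (exact p = 0.00146, adjusted 0.0109; rho = 0.964, exact p = 0.000972, adjusted 0.00729). Cybb and Ncf1 correlated at r = 0.859 (exact p = 0.00229, adjusted 0.0115; rho = 0.903, exact p = 0.00417, adjusted 0.0161), and Ncf1 and Ncf4 at r = 0.854 (exact p = 0.00764, adjusted 0.0286; rho = 0.891, exact p = 0.00431, adjusted 0.0161). Wild-type mouse 2 lay 0.51 above its group means in Ncf1 and 0.24 above them in Rac1, the highest deviation of the 10 mice in both. The lowest was that of knockout mouse 1 in Ncf1, at -0.38, and of wild-type mouse 3 in Rac1, at -0.17, while in Cybb the ends were knockout mice 4 (0.51) and 3 (-0.62). Without the 2 mice farthest from the median of the first gene, the 4 correlations were 0.859, 0.847, 0.833 and 0.775.

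Cyba and Rac2 stood outside this group. Cyba correlated with Rac2 at 0.78 (exact permutation, adjusted p = 0.18), which went to -0.133 without wild-type mice 3 and 4 and thus rested on them, and neither correlated with Ncf1, Ncf4, Cybb or Rac1 at an adjusted p under 0.05. Cybb correlated with Ncf4 at 0.675 and with Rac1 at 0.65 (exact permutation, adjusted p = 0.0757 for both; rho = 0.77 and 0.794, adjusted p = 0.0469 and 0.0408). Of all genes tested, 2.8% correlated with Ncf1 at least as strongly upward as Rac1 did, and 3.09% with Rac1 as strongly as Ncf1 did. For Ncf4 and Rac1 these shares were 2.61% and 2.28%, for Cybb and Ncf1 1.22% and 7.65%, and for Ncf1 and Ncf4 8.07% and 7.65%. They were larger for Cybb and Ncf4, at 13.6% and 17.7%, and for Cybb and Rac1, at 15.4% and 19.5%. The mean of the monocyte, macrophage and dendritic cell markers varied with the same members, at r = 0.806 with Ncf1, 0.798 with Cybb, 0.655 with Ncf4 and 0.641 with Rac1 (exact permutation, p = 0.0144, 0.0235, 0.0481 and 0.0478; adjusted over 36 relations 0.173, 0.184, 0.184 and 0.184). The mean of the 3 lymphocyte markers varied the opposite way, at r = -0.648 with Ncf1, -0.708 with Ncf4 and -0.74 with Rac1 (exact permutation, adjusted p = 0.184, 0.184 and 0.196), and these went to -0.337, -0.25 and -0.299 without wild-type mice 2 and 3. That of the progenitor markers correlated with Cybb at 0.671 (exact permutation, adjusted p = 0.245), and at 0.977 without knockout mouse 5 and wild-type mouse 3. Leaving out the same 2 mice moved the r of the progenitor mean from 0.384 to 0.855 with Ncf1. With Ncf4 it went from 0.213 to 0.767 and with Rac1 from 0.125 to 0.729. Cyba varied against the neutrophil, lymphocyte and progenitor means, at r = -0.854, -0.837 and -0.691 (exact permutation, adjusted p = 0.167, 0.184 and 0.167). Without the 2 mice farthest from the median of each list, these were -0.359, -0.526 and -0.226. None of the 36 relations between a marker list and a member had an adjusted p under 0.05. The part of these cells in the variation was not tested.

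**Figure D5:**
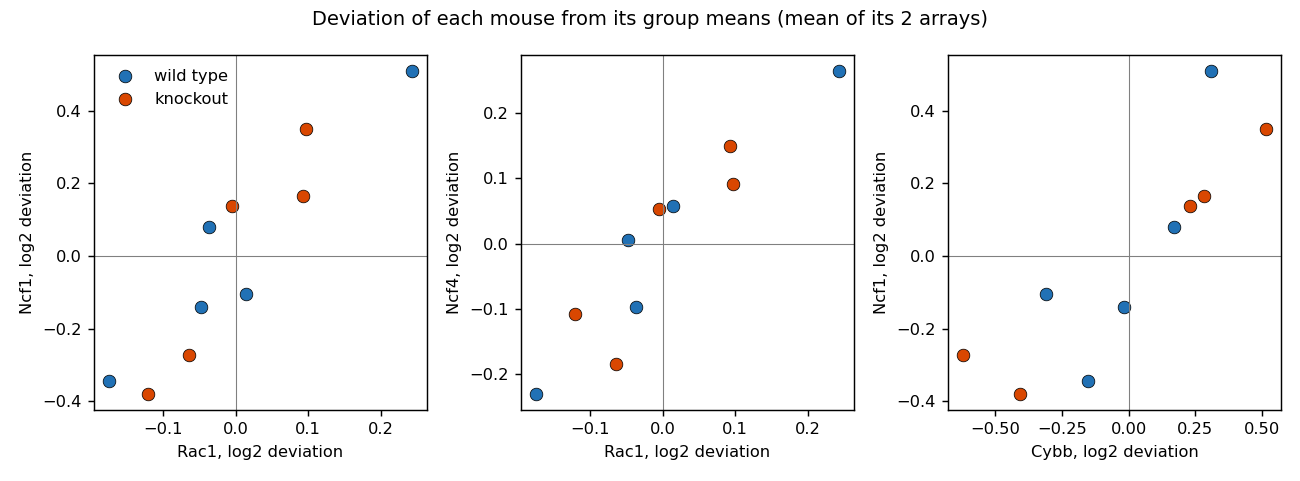
Deviation of each mouse from its group means on the log2 scale, averaged over its 2 arrays, for Ncf1 against Rac1, Ncf4 against Rac1 and Ncf1 against Cybb; 1 point per mouse, 5 wild-type and 5 knockout. The points rise together in each panel, with r of 0.923, 0.933 and 0.859, and wild-type mouse 2 is the rightmost point of the first 2 panels.

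Over all 20 arrays, with treatment and genotype left in, the genes whose log2 levels followed a member most closely by Pearson's r were found for each. For Ncf1 they were Csf1r (0.976), the receptor for macrophage colony-stimulating factor, and the kinase gene Jak2 (0.974). For Ncf4 they were Birc3 (0.985), which encodes an inhibitor of apoptosis in NF-kB signalling, and Cd52 (0.984), a surface glycoprotein gene. For Rac1, whose level did not follow the treatment, they were Arpc4 (0.979), a subunit gene of the actin-nucleating Arp2/3 complex, and Ogt (0.951). For Cybb they were the neutrophil collagenase gene Mmp8 (0.899), one of the neutrophil markers above, and Ccni (0.879). For Cyba they were G3bp2 (0.937) and Gss (0.919), the latter for glutathione synthetase, and for Rac2 they were Slc22a23 (0.877) and Pgd (0.87), the latter for an enzyme that makes NADPH. These correlations describe the 20 arrays, which share mice in pairs, and carry no test.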

How the data were processed

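Levels were taken as log2 values from the authors' deposited table of 20630 probe sets on 20 arrays, which runs from 1.27 to 13.99; the unit was read from the values. Per the labels' protocols, total RNA went through the Affymetrix 3' IVT Express kit to biotin-labelled cRNA. The sources used here do not state the normalization and summarization behind the table or the places of the probe sets in their transcripts, so genotype differences depend on that scaling. Probe sets with exactly 1 gene symbol were used (17826 of the table; 17675 matched RefSeq), for 54 genes the brightest of several. A gene was tested when above its array's 40th percentile on at least 5 arrays. Genotype and treatment labels set the groups; the titles of the IL-33 samples do not name IL-33. The fit was limma 3.58.1 in R 4.3.3 (lmFit, then eBayes; 1 mean per group, 20 arrays, 16 residual degrees of freedom), with Benjamini-Hochberg adjustment over 11767 genes and calls at an adjusted p under 0.05; it was tested on simulated data. Differences are on the log2 scale and the number of arrays limits their precision. Within a genotype, the 2 arrays that share a number deviated together (r of 0.262 to 0.783, each of 10 pairs best with its own number) and the series text names 5 mice per genotype, so the number was taken as the mouse. No label says more of how the mice were bred or the cultures kept.

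The members, lists and tests were chosen with earlier results of these data known. Named were all members, Dusp5, Cybc1 where tested, up to 4 called genes of each other list per comparison with the largest change (up to 2 where none was called), and the 2 genes most like each member. Outside this rule, Rac3, Noxo1, Duoxa1, Arhgef7, Sos1, Csf1r, Adgre1, Cd14, Cd68, C1qa, C1qc, Siglecf, Il5ra and Alox15 were chosen after their values were seen. Alternatives changed the scaling, the filter, the block, the prior and the arrays entered.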

Additional observations from a re-analysis of the deposited data

Results flagged for a closer look

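The change of Ncf4 with IL-33 in the wild-type mice held 1 value apart from the rest: mouse 5 rose by 0.68, while the other mice rose by 0.53 to 0.55, and the gap was 0.894 of the whole range, above Dixon's critical value of 0.71 for 5 samples. Of 36 sets of 5 values checked for the members, 1 stood out in this way, and at the 95% level chance alone marks about 1 set in 20. In the knockout mice the rise of Ncf4 ran from 0.41 to 0.55 with no such gap. Without wild-type mouse 5 the call of Ncf4 in wild-type cells remained.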

How the results depend on the processing

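The rises of Ncf1 and Ncf4 with IL-33 passed the limma threshold under all 23 alternatives in each genotype, at 0.94 to 1.19 and 0.89 to 1.13 for Ncf1 and 0.51 to 0.64 and 0.43 to 0.52 for Ncf4. Of 834 values of members under alternatives, 740 kept direction and call, 36 lost a call, 12 gained one and 46 turned sign, none of the last a called value. The members that rose in wild-type cells numbered 2 instead of 4 after median centring, with no dim filter and with only the 2 groups fitted, and 2 to 4 when 1 array or mouse was left out; Cyba and Rac2 were both lost without untreated array 1, 2 or 3, IL-33 array 1, 2, 4 or 5, or mouse 1, 2, 4 or 5, and Cyba alone without untreated array 4 or 5 and after quantile normalization. Cyba in knockout cells lost its call without untreated array 5 (adjusted p = 0.0586), IL-33 array 4 (0.0512) or mice 2, 4 or 5 (0.0852, 0.0887 and 0.0681). With the mouse as a fixed replicate block, 1 member, Cybb, fell in wild-type and 1 in knockout cells, and with the random block 1 in knockout cells; leaving out arrays gave 0 to 1 there. Both mouse blocks also gained the call of Rac2 in knockout cells and changed no other member's call. Between genotypes, arrays with the same replicate number gave r from -0.181 to 0.601, and 8 of 20 were best with their own number. No label says whether these numbers link mice of the 2 genotypes, and this was not tested. A block on them made 1 member higher in untreated knockout cells (Ncf4, limma, adjusted p = 0.0327) and 1 after IL-33 (Rac1, adjusted p = 0.0417). With it, 806 and 2187 genes were called in all. Without that block, leaving out arrays gave 0 to 1 member higher after IL-33.

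Values close to 0 turned sign. After quantile normalization Cyba differed between genotypes by -0.063 untreated and -0.0040 after IL-33, and the IL-33 changes differed between genotypes by 0.0056 for Rac1 and 0.0093 for Rac2; after median centring Cyba in untreated cells was at -0.0043. Leaving out arrays or mice gave ranges of -0.089 to 0.032 for Rac1 with IL-33 in wild-type cells, -0.020 to 0.020 for Cyba between genotypes untreated and -0.023 to 0.048 after IL-33, and -0.056 to 0.22 for Cybb between genotypes after IL-33. For the difference of the IL-33 changes they were -0.31 to 0.0035 for Cybb, -0.026 to 0.046 for Cyba, -0.17 to 0.084 for Ncf1, -0.068 to 0.053 for Rac1 and -0.13 to 0.058 for Rac2. Between genotypes after IL-33, 44.6% of the genes called were higher in knockout cells, against 67.7% after quantile normalization and 57.8% after median centring, and the count of 260 called genes ranged from 24 with only the 2 groups fitted to 2187 with the number block. The cause of these shifts was not tested. Each member has 1 probe set in the deposited table, so no other probe set could be tried. Fitting only the groups compared leaves the difference of the changes as it is.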
